A study of Mus musculus with 16 samples.

Results

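The 10 genes described here act on circulating and cellular fat: Lpl, Gpihbp1, Angptl4, Cd36, Vldlr, Lrp8, Fabp3, Fabp5, Mgll and Lipe. They were taken by symbol from a deposited table of 21999 genes, and all 10 were listed there. They were selected on their measured genotype differences, because Lpl had moved in opposite directions in hippocampus and cortex and Cd36 upward in both after loss of Foxp1, so their genotype differences are given as values with no test. RNA was sequenced from the left hemisphere of male mice at postnatal day 47, in 16 libraries that form 4 groups of 4: control hippocampus, Foxp1 conditional knockout (cKO) hippocampus, control cortex and cKO cortex. Controls were littermates, and the study places the deletion in forebrain pyramidal neurons. Foxp1 in the other cells of these tissues was not measured separately. The labels name neither the Cre driver nor the deleted part of the gene, and they do not say whether the regions of a mouse were both sequenced. Libraries are called by the DJ numbers of their titles. In whole tissue, fewer cells of a type and less RNA per cell cannot be told apart.

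Lipoprotein lipase, the product of Lpl, splits triglycerides carried by lipoproteins and so frees fatty acids for uptake. Gpihbp1 anchors the enzyme to capillary endothelium in peripheral tissue, and Angptl4 inhibits it. In brain Lpl is made by neurons, among other cells. Cd36 is a scavenger receptor that binds long-chain fatty acids. Vldlr and Lrp8 (also called ApoER2) bind apolipoprotein E and are the neuronal receptors for reelin. Fabp3 and Fabp5 carry fatty acids in the cytosol, Mgll cleaves monoacylglycerols, including the endocannabinoid among them, and Lipe is hormone-sensitive lipase.

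Promoter sequence was taken from a RefSeq-derived table on GRCm38.p6, which held 11 entries for 6 of the 10 genes: Cd36, Vldlr, Lrp8, Fabp3, Mgll and Lipe. Foxp1 is a forkhead factor, and each entry was searched over the 250 bases before its start for 4 forkhead motifs on both strands, namely TGTTTAC, then the same ending in T (TGTTTAT), and the forms with A as the second base (TATTTAC or TATTTAT). Shown, 5′ to 3′ on the strand of the gene, are the promoters of Cd36, Lrp8 and Mgll, whose genotype differences are described in detail here, and the Lipe promoter that held a match. Lrp8 has 3 entries and Mgll and Lipe 2 each, of which 1 is shown: the most upstream one for Lrp8 and Mgll, and the downstream one for Lipe. Capitals mark a match.
Cd36 (chr5:17835897-17836146, minus strand): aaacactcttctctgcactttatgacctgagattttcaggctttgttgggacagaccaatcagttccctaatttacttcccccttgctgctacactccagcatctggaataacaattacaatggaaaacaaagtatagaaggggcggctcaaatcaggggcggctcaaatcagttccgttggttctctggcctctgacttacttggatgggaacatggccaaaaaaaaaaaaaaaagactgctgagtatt
Lrp8 (chr4:107802635-107802884, plus strand): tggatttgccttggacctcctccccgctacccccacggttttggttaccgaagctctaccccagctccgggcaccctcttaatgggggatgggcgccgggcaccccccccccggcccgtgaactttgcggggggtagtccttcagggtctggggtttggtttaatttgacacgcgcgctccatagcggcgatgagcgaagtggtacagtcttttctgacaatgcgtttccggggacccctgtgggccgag
Mgll (chr6:88724162-88724411, plus strand): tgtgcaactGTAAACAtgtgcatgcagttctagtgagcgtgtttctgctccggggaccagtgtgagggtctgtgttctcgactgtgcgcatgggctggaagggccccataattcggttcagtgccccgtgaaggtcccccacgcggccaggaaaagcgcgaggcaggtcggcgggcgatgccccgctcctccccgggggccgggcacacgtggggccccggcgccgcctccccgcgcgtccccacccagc
Lipe (chr7:25390113-25390362, minus strand): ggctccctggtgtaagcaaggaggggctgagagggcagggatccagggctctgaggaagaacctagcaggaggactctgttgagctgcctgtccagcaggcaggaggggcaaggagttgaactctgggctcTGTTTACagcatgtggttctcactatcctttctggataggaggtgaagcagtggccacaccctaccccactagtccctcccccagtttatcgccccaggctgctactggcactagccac
Of the 11 entries, 2 held a match, and the entries of Lrp8, Mgll and Lipe not shown held none. The Mgll match is written GTAAACA, the motif on the opposite strand, and begins 241 bases before the start. The Lipe match is TGTTTAC, 119 bases before the start. Among all 32851 promoters of the table, 13.6% held at least 1 match in the same window. Every entry of Cd36, Lrp8 and Lipe lies inside the annotated span of its gene, as given below. The sequence just upstream of those spans was therefore not searched.

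Foxp1 itself, the deleted gene, was lower in every cKO library than in every control library of its region. It averaged 227 ± 45.4 counts-per-million (CPM; SD, n = 4) in control hippocampus and 119 ± 16.0 in cKO hippocampus, which is 52.3% of control. In cortex it averaged 284 ± 14.1 in controls and 113.5 ± 21.2 in cKO, which is 39.9%. Depth ran from 6943136 to 14817870 reads per library, so 1 read was worth 0.0675 to 0.144 CPM and a floor of 3 reads was 0.202 to 0.432 CPM. Over the 24 pairs of replicates the chi-square per degree of freedom was 2.19 to 17.9, so no pair agreed within sampling noise. Pairs with control hippocampus DJ17 gave 10.1, 15.2 and 17.9, and cKO hippocampus DJ15 with DJ18 gave 14.6. In DJ17 myelin markers summed to 13800 CPM, against 5275 to 7260 CPM in the other hippocampal controls. Striatal markers summed to 1048 CPM in DJ17, 218 to 560 CPM in those controls and 547 to 1157 CPM in cKO hippocampus. The part of these differences in the hippocampal Foxp1 and Lpl values was not tested. Dentate and CA1 markers were higher in control hippocampus than in control cortex (summed levels of 1070 to 1396 against 772 to 801 CPM, and 611 to 806 against 547 to 581 CPM), and cortical upper-layer markers were lower (925 to 1060 against 2978 to 3357 CPM). The dentate marker C1ql2 was at 0 in at least 1 cortex library of each genotype. Choroid plexus markers summed to 682 to 2043 CPM over the hippocampal libraries and 5.01 to 247 CPM over the cortical ones.

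**Figure D1:**
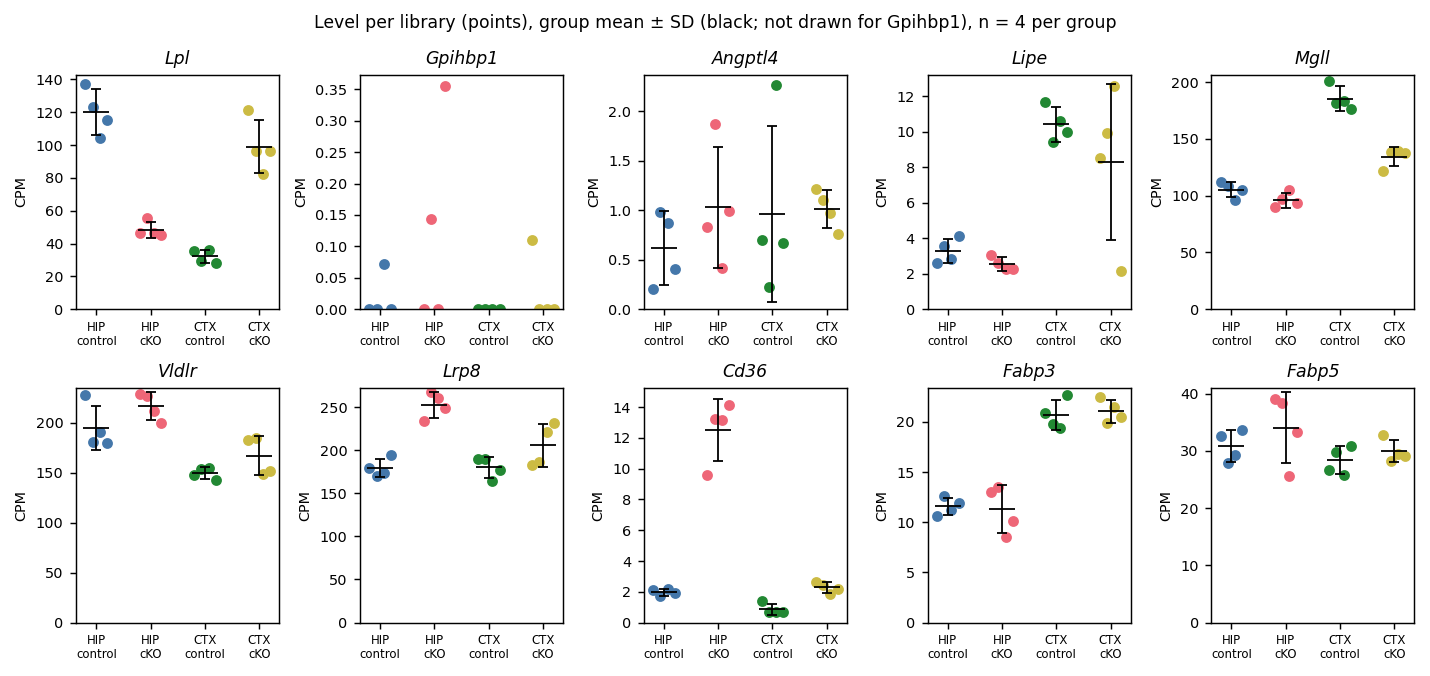
Level of each of the 10 genes in CPM (vertical axes, each from 0) in every library, by group (HIP for hippocampus, CTX for cortex). Points are libraries and black bars are group means ± SD, n = 4, which are not drawn for Gpihbp1. Lpl is high in control hippocampus and cKO cortex and low in the other two groups, and Cd36 is highest in cKO hippocampus.

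Lpl fell to 40.3% of its control level in cKO hippocampus and rose to 308% of it in cKO cortex. In control hippocampus DJ17, DJ20, DJ21 and DJ22 it stood at 137.5, 123, 104 and 115.5 CPM, and in cKO hippocampus DJ15, DJ16, DJ18 and DJ19 at 46.2, 55.7, 46.4 and 45.2 CPM. Every control was above every cKO library. In cortex the level of the controls was 35.5 CPM in DJ3, 29.3 in DJ6, 35.9 in DJ7 and 28.0 in DJ8, and that of the cKO libraries was 121 CPM in DJ1, 96.3 in DJ2, 82.2 in DJ4 and 96.2 in DJ5. Here every cKO library was above every control. Group means were 120.1 ± 13.9 and 48.4 ± 4.92 CPM in control and cKO hippocampus, and 32.2 ± 4.09 and 99.0 ± 16.3 CPM in control and cKO cortex (SD, n = 4 each). The fitted difference, cKO minus control on the log2(CPM + 0.5) scale, was −1.30 (SE 0.095) in hippocampus and 1.60 (SE 0.106) in cortex. With each library left out in turn it ranged from −1.37 to −1.23 and from 1.499 to 1.69. The hippocampal difference was lower than the cortical one by −2.90 (SE 0.158), a value that chose the gene and was not tested. Ordered by level, control hippocampus came first and overlapped cKO cortex, followed without overlap by cKO hippocampus and then control cortex. These levels rest on 252 to 1712 reads per library. Lpl lies at chr8:68880491-68907448 on the plus strand (GENCODE M21, GRCm38), and no other annotated gene overlaps it.

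Of 17 marker lists, 4 were higher and 5 lower in cKO than in control cortex without overlap of their summed levels, beside the Lpl difference. Striatal neuron markers summed to 281 to 615 CPM in control cortex and 712 to 1080 CPM in cKO cortex, with all 8 measured markers above 0 in each library. CA1 markers were also higher in cKO cortex, at 782 to 883 against 547 to 581 CPM, as were dentate markers, at 1053 to 1147 against 772 to 801 CPM, and upper-layer markers, at 3716 to 4149 against 2978 to 3357 CPM. Myelin markers were lower, at 3147 to 4210 against 5285 to 7232 CPM, and so were endothelial markers, at 412 to 476 against 481 to 572 CPM, and pericyte and smooth muscle markers, at 254.5 to 322 against 325 to 407 CPM. Pan-neuronal markers were lower too, at 12730 to 13170 against 14670 to 15210 CPM, and so were pyramidal neuron markers, at 4654 to 4801 against 4802 to 5345 CPM. Their part in the Lpl difference was not tested. In hippocampus pyramidal markers were lower in cKO, at 3824 to 4161 against 4250 to 5103 CPM. CA1 markers overlapped, at 592 to 650 against 611 to 806 CPM, through control DJ17 (611 CPM). The other controls, at 728 to 806 CPM, were above every cKO library. Of 10 CA1 markers 3 were called lower in cKO and 0 higher (median log2 difference −0.39), where 1.38% of all genes were called. The part of either list in the Lpl difference there was not tested.

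The partners of the enzyme were scarce in these libraries. Gpihbp1 had 0, 0, 1 and 0 reads in control hippocampus DJ17, DJ20, DJ21 and DJ22, and 0, 1, 0 and 5 reads in cKO hippocampus DJ15, DJ16, DJ18 and DJ19. It had no read in control cortex and 1 read, in DJ1, in cKO cortex. No library but DJ19 (0.356 CPM) was above the floor of 3 reads, and the gene was below the minimum for a fit, so any difference was not detectable at this depth. Endothelial markers, of which all 14 were above 0 in every library, summed to 401 to 572 CPM. Angptl4 was near the limit of measurement, with 2 to 16 reads per library. Its group means were 0.618 ± 0.371 CPM in control hippocampus, 1.03 ± 0.614 in cKO hippocampus, 0.962 ± 0.893 in control cortex and 1.02 ± 0.194 in cKO cortex (SD, n = 4). All 4 groups overlapped, and the log2 differences were 0.43 (SE 0.331) in hippocampus and 0.22 (SE 0.333) in cortex.

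Cd36 rose in both regions, from a low level. In control hippocampus DJ17, DJ20, DJ21 and DJ22 it stood at 2.09, 1.70, 2.18 and 1.89 CPM, and in cKO hippocampus DJ15, DJ16, DJ18 and DJ19 at 9.57, 13.2, 13.1 and 14.2 CPM. The groups were far apart, at 638% of the control mean. In cortex the level of the controls was 1.39 CPM in DJ3, 0.664 in DJ6, 0.707 in DJ7 and 0.667 in DJ8, and that of the cKO libraries was 2.65 CPM in DJ1, 2.45 in DJ2, 1.83 in DJ4 and 2.18 in DJ5. The cortical groups did not overlap either, at 266% of the control mean, but the control values rest on 5 to 10 reads per library against 81 to 199 in cKO hippocampus. Group means were 1.97 ± 0.214 and 12.5 ± 2.03 CPM in control and cKO hippocampus, and 0.857 ± 0.357 and 2.28 ± 0.356 CPM in control and cKO cortex (SD, n = 4). The log2 difference was 2.39 (SE 0.158) in hippocampus and 1.06 (SE 0.235) in cortex, on a scale whose added 0.5 CPM understates the change of so low a gene. The hippocampal difference exceeded the cortical one by 1.33 (SE 0.264), which was not tested. By level, cKO hippocampus was followed without overlap by cKO cortex, which overlapped control hippocampus, and control cortex came last. Cd36 lies at chr5:17781690-17888801 on the minus strand, with no overlapping gene.

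Microglia and endothelial cells are known sources of Cd36. Microglia and macrophage markers overlapped between genotypes, at 308 to 374 CPM in control and 303 to 398 CPM in cKO hippocampus, and 330 to 428 and 319 to 384 CPM in control and cKO cortex. Endothelial markers summed to 401 to 462 and 442 to 458 CPM in control and cKO hippocampus, and, as given with Lpl, were lower in cKO cortex. In hippocampus, where 1.38% of all genes were called, none of the 15 microglial and 14 endothelial markers was. In cortex, where 13.5% of all genes were called, 3 of the 14 endothelial markers fell and none of the 15 microglial markers was called. Of the 17 marker lists, 4 were higher in cKO hippocampus without overlap and 1 was lower. The higher ones were those of astrocytes (9415 to 10510 CPM in control and 10540 to 11650 CPM in cKO), oligodendrocyte precursors (209 to 221 and 226 to 261 CPM), upper-layer neurons (925 to 1060 and 1144 to 1613 CPM) and deep-layer neurons (719 to 784 and 826 to 895 CPM). Pyramidal markers were the lower list, as given with Lpl. Their part in the Cd36 difference was not tested.

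Lrp8 (chr4:107802261-107876840, plus strand), the reelin receptor, was higher in cKO hippocampus without overlap. Controls DJ17, DJ20, DJ21 and DJ22 had 179, 170.6, 174 and 194 CPM and cKO DJ15, DJ16, DJ18 and DJ19 had 234, 267, 260.5 and 249.2 CPM, which is 141% of the control mean (log2 difference 0.49, SE 0.063). In cortex controls had 164 to 189.5 CPM and cKO libraries 183, 186, 221 and 232 CPM, so DJ1 and DJ2 lay within the control range and DJ4 and DJ5 above it. The cortical log2 difference was 0.18 (SE 0.075), and it was called in 1 of 8 fits with a library left out, that without cKO DJ1 (0.24). The hippocampal difference exceeded the cortical one by 0.31 (SE 0.106), untested. Vldlr, its close relative, overlapped between genotypes in both regions. It averaged 194 ± 22.3 and 216 ± 13.9 CPM in control and cKO hippocampus and 149.7 ± 5.92 and 167 ± 19.2 CPM in control and cKO cortex (SD, n = 4), with log2 differences of 0.16 (SE 0.081) and 0.15 (SE 0.071). Per kb of annotated exon, the 2 receptors were at similar levels in control hippocampus, 19.3 CPM per kb for Vldlr and 17.1 for Lrp8, against 11.5 for Lpl and 0.547 for Cd36.

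The cytosolic carriers Fabp3 and Fabp5 showed small differences between genotypes. Fabp3 averaged 11.6 ± 0.863 and 11.3 ± 2.37 CPM in control and cKO hippocampus and 20.7 ± 1.48 and 21.1 ± 1.14 CPM in control and cKO cortex (SD, n = 4), with log2 differences of −0.06 (SE 0.149) and 0.03 (SE 0.094). Its exons overlap Zcchc17 and Gm10570 on the other strand, and since no source used here says whether counting used strand, reads of these genes may not be separable. Fabp5 averaged 30.9 ± 2.71 and 34.1 ± 6.20 CPM in hippocampus and 28.3 ± 2.43 and 29.9 ± 1.94 CPM in cortex, with log2 differences of 0.13 (SE 0.128) and 0.08 (SE 0.089). The genotypes overlapped for both genes in both regions. Both belong to a family with processed pseudogenes: Fabp3-ps1 was listed at no more than 0.368 CPM.

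Of the lipases inside cells, Mgll fell in cKO cortex without overlap. Controls DJ3, DJ6, DJ7 and DJ8 had 201, 181, 183 and 176 CPM and cKO DJ1, DJ2, DJ4 and DJ5 had 122, 138, 139 and 138 CPM, which is 72.4% of the control mean. The log2 difference was −0.46 (SE 0.061) in cortex. In hippocampus it was −0.13 (SE 0.071), where 95.9 to 112 CPM in controls overlapped 89.6 to 105 CPM in cKO. Mgll lies at chr6:88724412-88828360 on the plus strand, and an antisense gene, Gm26588, covers part of its exons. Lipe (chr7:25379527-25398710, minus strand, with the antisense gene 4732471J01Rik over part of its exons) was low, at 2.61 to 4.12 CPM in control and 2.25 to 3.07 CPM in cKO hippocampus, with a log2 difference of −0.30 (SE 0.183). In control cortex DJ3, DJ6, DJ7 and DJ8 it stood at 11.7, 9.40, 10.6 and 10.0 CPM, and in cKO cortex DJ1, DJ2, DJ4 and DJ5 at 8.52, 9.93, 12.6 and 2.18 CPM. The value of DJ5 (20 reads) was far below the lowest control, while the other cKO libraries had 77 to 103 reads and lay around the control range. The cortical log2 difference was −0.52 (SE 0.327) with DJ5 and −0.025 without it.

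**Figure D2:**
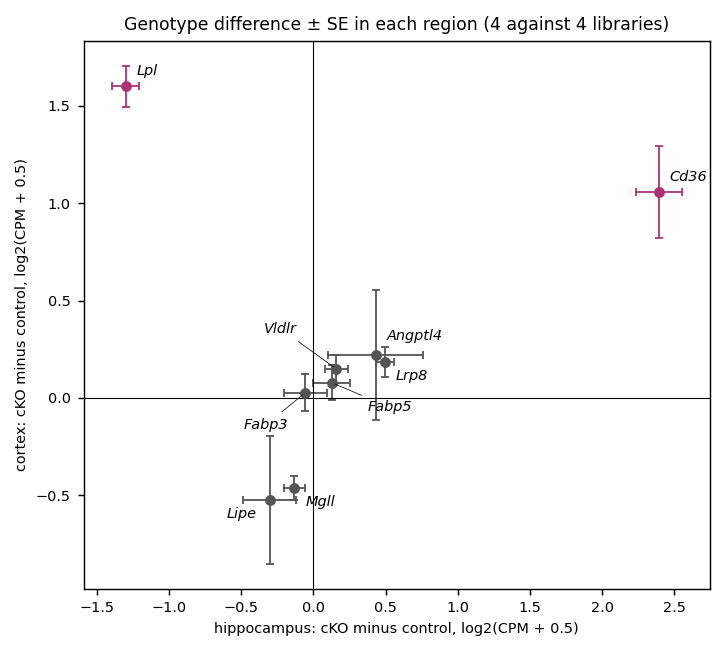
Difference between cKO and control on the log2(CPM + 0.5) scale in hippocampus (horizontal) and cortex (vertical) for the 9 genes that could be fitted, with SE bars, 4 against 4 libraries in each region. Lpl lies at −1.30 and 1.60, Cd36 at 2.39 and 1.06, and the other genes lie within 0.6 of 0 on both axes.

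In the fit over all genes, 3 of the 9 members that passed the minimum of 0.5 CPM were called in hippocampus (adjusted p below 0.05: Cd36 and Lrp8 higher, Lpl lower), where 1.38% of 13899 genes were called, 0.662% higher and 0.719% lower. In cortex 3 of 9 were called (Lpl and Cd36 higher, Mgll lower), where 13.5% of 13713 genes were called, 7.64% higher and 5.83% lower. Genotypes did not overlap for 3 of 9 members in each region, against 8.01% of all genes in hippocampus and 17.7% in cortex. These contrasts chose the genes, so nothing is read from the counts. The median log2 difference of the 9 was 0.13 in hippocampus and 0.15 in cortex, and that of all genes 0.06 and 0.03. In the authors' deposited table of 243 hippocampal genes, Lpl had a log2 fold change of −1.37, Cd36 of 2.62 and Lrp8 of 0.44. The authors' deposited table of 874 cortical genes gave 1.58 for Lpl and −0.50 for Mgll and did not list Cd36. Among the genes of that table the authors' highest adjusted p was 0.0049 and the smallest log2 change, up or down, was 0.3. The calls here used 0.05 and set no limit on size, so the absence of Cd36 there cannot be read as disagreement. Among the authors' deposited overlap lists, Lpl stood in that of autism-associated genes higher in cortex (48 symbols), in that of autism-associated genes lower in hippocampus (18 symbols) and in the list of 724 genes lower in heterozygous Foxp1 knockouts, and Angptl4 in the list of 652 genes higher in those knockouts.

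The normal difference between the regions, control hippocampus minus control cortex, was not used to choose the genes, although its libraries are the controls of both genotype contrasts. Library numbers did not overlap between the regions, with DJ3 to DJ8 for control cortex and DJ17 to DJ22 for control hippocampus. Depth was 7075560 to 9037821 reads in those cortical libraries and 9578904 to 14817870 in the hippocampal ones. An effect of either cannot be told apart from region in this contrast. Here 6 of the 9 fitted members differed by limma's test with Benjamini-Hochberg adjustment over all genes, where 37.8% of 13823 genes did (20.9% higher in hippocampus and 16.9% lower), and 6 of 9 did not overlap, where 36.8% of all genes did not. Lpl was 3.73 times as high in hippocampus (log2 difference 1.88, SE 0.10, limma adjusted p = 1.3e-08). Lpl was chosen for falling in hippocampus and rising in cortex, which favours high hippocampal and low cortical controls. Its p-value is therefore not independent of that choice. Cd36 was 2.29 times as high (0.89, SE 0.217, limma adjusted p = 0.0056), and Vldlr 1.30 times as high (0.37, SE 0.073, limma adjusted p = 0.0013). All 4 hippocampal libraries were above all 4 cortical ones for each of these.

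Lipe, Mgll and Fabp3 were lower in control hippocampus than in control cortex. Lipe stood at 31.5% of the cortical level (−1.54, SE 0.156, limma adjusted p = 4.6e-06). Mgll stood at 56.9% (−0.81, SE 0.063, limma adjusted p = 4.4e-07) and Fabp3 at 56.1% (−0.81, SE 0.099, limma adjusted p = 2.7e-05). Every hippocampal library was again outside the cortical range. Angptl4 (−0.27, SE 0.381, limma adjusted p = 0.62), Lrp8 (−0.005, SE 0.062, limma adjusted p = 0.97) and Fabp5 (0.12, SE 0.091, limma adjusted p = 0.33) overlapped and did not pass. The 6 calls held in all 8 fits that left out 1 control library, the highest adjusted p being 0.019, for Cd36. The median difference of the 9 genes was −0.005 and that of all genes 0.02. Of the 17 marker lists, 6 were higher and 3 lower in control hippocampus without overlap, as given above for dentate, CA1 and upper-layer markers. Choroid plexus markers summed to 682 to 1227 CPM in hippocampus and 5.01 to 174 CPM in cortex. Of these 9 markers, 4 were at 0 in at least 1 cortical library. CA3 markers were higher too (888 to 953 against 538 to 561 CPM). So were oligodendrocyte precursor markers (209 to 221 against 174 to 189 CPM). Fibroblast and meningeal markers were also higher (130 to 190.5 against 99.5 to 125 CPM). Lower were pan-neuronal (11030 to 11920 against 14670 to 15210 CPM) and endothelial markers (401 to 462 against 481 to 572 CPM). Their part in these differences was not tested.

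In cKO tissue the regions stood differently for Lpl. The log2 difference between hippocampus and cortex was −1.02 (SE 0.112) in cKO, against 1.88 in controls. For Cd36 it was 2.22 (SE 0.187) in cKO against 0.89 in controls, and for Mgll −0.48 (SE 0.066) against −0.81. Vldlr, at 0.38 (SE 0.081) against 0.37, and Fabp3, at −0.89 (SE 0.122) against −0.81, had values within an SE of each other. These cKO values share libraries with the contrasts that chose the genes and were not tested.

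**Figure D3:**
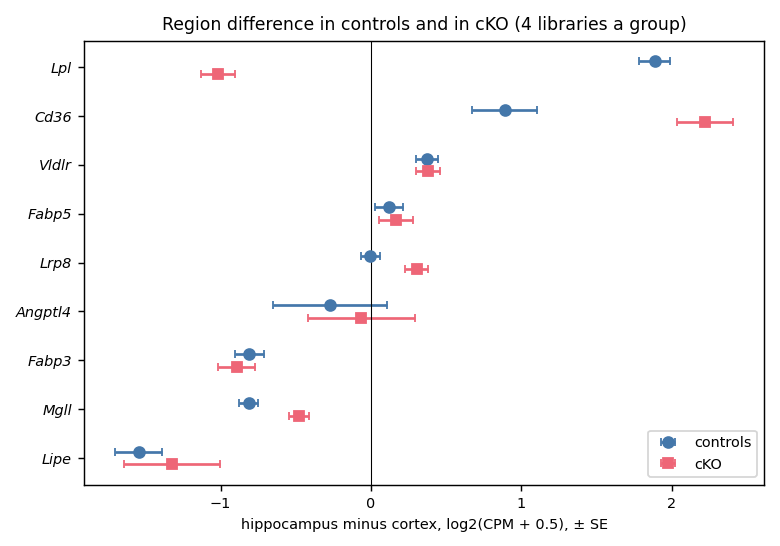
Difference between hippocampus and cortex on the log2(CPM + 0.5) scale (horizontal) in controls (circles) and in cKO (squares), with SE bars, for the 9 fitted genes, 4 libraries a group. Lpl stands at 1.88 in controls and at −1.02 in cKO, while Vldlr stands at 0.37 and 0.38.

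The wider pathway was read from 7 lists holding 195 other genes: lipase partners and apolipoproteins, other lipases, the LDL receptor family with the reelin pathway, fatty acid transport and activation, fatty acid oxidation, lipid droplets and triglyceride synthesis, and PPAR, RXR and lipid-sensing regulators. In hippocampus 2 of the 154 that could be fitted were called (1.3%, near the 1.38% of all genes), with a median log2 difference of 0.06 against 0.06 for all genes. Clu, an apolipoprotein, rose from 344 ± 7.08 to 413 ± 18.7 CPM (0.26, SE 0.052, limma adjusted p = 0.035). Acadm, the medium-chain acyl-CoA dehydrogenase of fatty acid oxidation, rose from 31.7 ± 2.04 to 41.4 ± 1.62 CPM (0.38, SE 0.077, limma adjusted p = 0.035). With a library left out each call held in 2 of 8 fits, for Clu those without control DJ17 or cKO DJ18 and for Acadm those without control DJ17 or cKO DJ15, and the highest limma adjusted p was 0.12 for Clu and 0.13 for Acadm. Both were also lost under median-of-ratios rescaling (limma adjusted p = 0.094 and 0.084) and in edgeR's quasi-likelihood test on recovered reads (adjusted p = 0.094 and 0.076), and Acadm under quantile normalization (limma adjusted p = 0.088). Of the 23 LDL receptor family and reelin genes fitted there, 1 was called, and of the 37 fatty acid oxidation genes, 1. The other 5 lists had none.

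In cortex 17 of 151 pathway genes were called (11.3%, against 13.5% of all genes), 8 higher and 9 lower. Among the 23 of the LDL receptor family and reelin pathway, Reln, the secreted ligand of Vldlr and Lrp8, rose from 81.9 ± 4.52 to 121 ± 1.20 CPM (0.56, SE 0.058, limma adjusted p = 3.2e-06). Lrp12 rose by 0.26 (limma adjusted p = 0.014), and Sorl1, a sorting receptor, fell from 526.5 ± 43.0 to 381 ± 50.2 CPM (−0.47, limma adjusted p = 5.1e-04). Of the 20 genes of fatty acid transport and activation 1 rose and 3 fell, and the 3 are acyl-CoA synthetases. The 1 that rose was Fabp7 (log2 difference 0.48). In hippocampus its difference was 0.35 and was not called. Acsl5 fell from 94.4 ± 2.23 to 63.9 ± 2.51 CPM (−0.56, SE 0.060, limma adjusted p = 4.2e-06), Acsl6 by −0.33 (limma adjusted p = 7.8e-05) and Acsl3 by −0.22 (limma adjusted p = 0.0073).

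Of 19 other lipases 2 rose and 1 fell in cortex. Dagla, which makes the endocannabinoid that Mgll degrades, fell from 57.7 ± 2.46 to 44.5 ± 3.75 CPM (−0.37, limma adjusted p = 0.0022), and Naaa, a hydrolase of acylethanolamines, rose from 11.9 ± 1.62 to 17.97 ± 2.21 CPM (0.58, limma adjusted p = 0.0035). Lipg, endothelial lipase, rose from 3.01 ± 1.22 to 5.74 ± 1.93 CPM (0.85, limma adjusted p = 0.027). Among 23 lipid-sensing regulators 2 rose and 2 fell: the retinoid receptor Rxrg rose from 3.87 ± 0.989 to 8.60 ± 1.99 CPM (1.06, SE 0.190, limma adjusted p = 8.4e-04), while the coactivator Ppargc1a (−0.28, limma adjusted p = 0.0012) and Foxo3 (−0.28, limma adjusted p = 0.0042) fell. Striatal markers separated the same groups, as given with Lpl, and their part in the Rxrg difference was not tested. Of 10 lipase partners 1 fell, the heparan sulfate carrier Sdc4 (−0.40, limma adjusted p = 0.029), and of 19 lipid droplet genes Dgat2 rose (0.39, limma adjusted p = 0.039) and Agpat3 fell (−0.18, limma adjusted p = 0.027). None of the 37 fatty acid oxidation genes fitted in cortex was called. With a library left out the calls held in 8 of 8 fits for Reln, Sorl1, Acsl5, Acsl6, Acsl3, Dagla, Naaa, Rxrg, Ppargc1a and Foxo3, and in 7 for Lrp12, which was lost without cKO DJ2. Lipg was lost without control DJ3 or DJ7 or cKO DJ4 or DJ5, Sdc4 without control DJ6, DJ7 or DJ8 or cKO DJ1 or DJ2, and Agpat3 without control DJ6, DJ7 or DJ8 or cKO DJ2 or DJ5. Dgat2 held in 2 fits, those without control DJ3 or cKO DJ4. Under the other alternatives Sdc4 was lost with all 16 libraries in 1 fit (limma adjusted p = 0.13) and with no minimum level (0.056), Agpat3 with all 16 libraries (0.053), and Lipg with no minimum (0.059) and in edgeR (adjusted p = 0.05). Dgat2 was lost under quantile normalization (limma adjusted p = 0.054), median-of-ratios rescaling (0.056), no minimum (0.06) and in DESeq2 (adjusted p = 0.061), and Lrp12 in DESeq2 (adjusted p = 0.051).

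**Figure D4:**
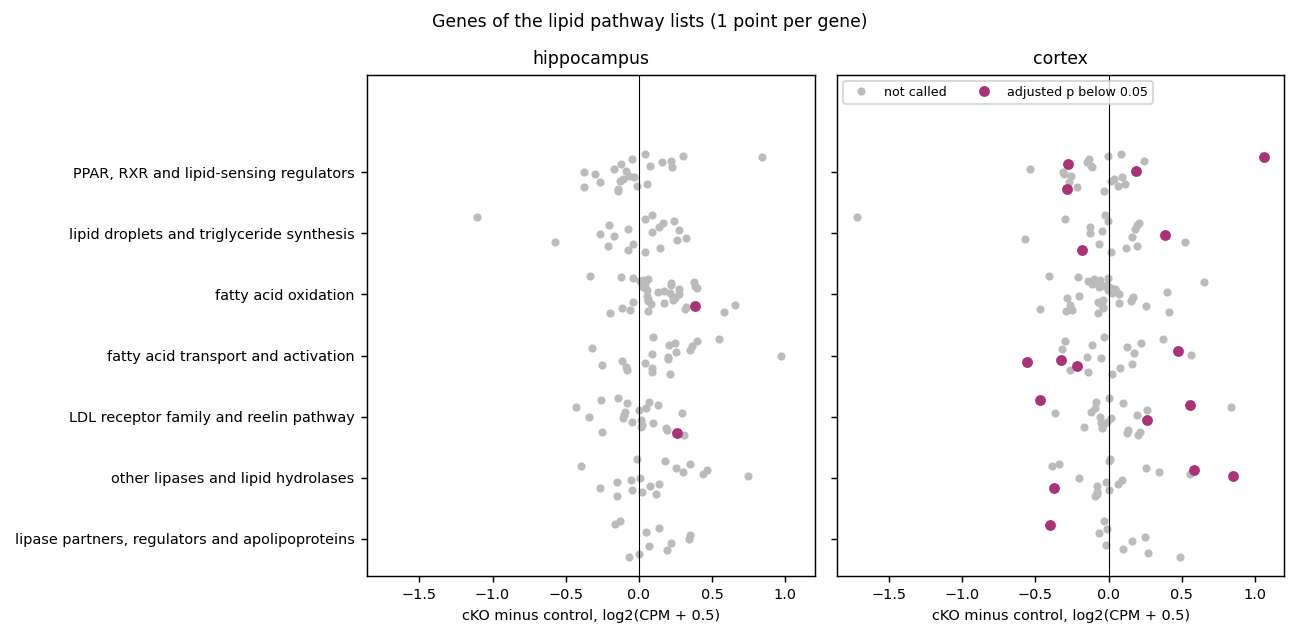
Genotype difference, cKO minus control on the log2(CPM + 0.5) scale (horizontal), of each gene of the 7 pathway lists (vertical) in hippocampus and cortex; coloured points are genes with an adjusted p below 0.05. In hippocampus 2 of 154 genes are coloured and in cortex 17 of 151.

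Between the control regions 54 of 153 pathway genes were called (35.3%, against 37.8% of all genes), 31 higher in hippocampus and 23 lower. Lrp2, a large receptor of the LDL receptor family, averaged 4.34 ± 1.08 CPM in hippocampus and 0.265 ± 0.229 CPM in cortex (2.68, SE 0.258, limma adjusted p = 3.0e-06). Lrp2 is known in choroid plexus, whose markers moved the same way, and their part in this difference was not tested. The forkhead regulators of lipid metabolism differed in opposite directions, Foxo1 being higher in hippocampus (1.47, SE 0.101, limma adjusted p = 1.4e-07) and Foxo3 lower (−0.71, SE 0.066, limma adjusted p = 2.2e-06). Pparg, a nuclear receptor for fatty acids, averaged 0.907 ± 0.292 CPM in hippocampus and 5.51 ± 1.93 CPM in cortex (−2.07, SE 0.237, limma adjusted p = 1.5e-05).

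Further lipid genes differed between the control regions. Napepld, which makes acylethanolamines, was higher in hippocampus (0.99, limma adjusted p = 7.3e-06), as were Dbi, an acyl-CoA binding protein (0.67, limma adjusted p = 1.1e-05), Pcsk6 (0.60, limma adjusted p = 0.015) and Furin (0.55, limma adjusted p = 7.8e-04), a pair of proteases that cut lipase regulators, Dgat2 of triglyceride synthesis (0.61, limma adjusted p = 4.4e-04) and the mitochondrial carrier Ucp2 (0.54, limma adjusted p = 0.0031). Sdc4 (0.46), Lrp1b (0.40), Soat1 (0.35), Acadm (0.34), Lrp6 (0.30) and Hadha (0.27) were higher in hippocampus as well. Cav2 (−0.69, limma adjusted p = 4.4e-06), Acsl5 (−0.58, limma adjusted p = 7.6e-06), Pnpla3 (−0.50), Daglb (−0.47) and Agpat3 (−0.38) were lower there. Of these calls, all held in 8 of 8 fits with a control library left out except that of Pcsk6, which was lost without cortical DJ8 (adjusted p = 0.051).

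The genes whose pattern was most like that of Lpl over the 16 libraries, among 13151 genes averaging 1 CPM or more, were Dgkb, a diacylglycerol kinase (Pearson r = 0.915), Fgf10, a growth factor (0.898), Ptgs2, a prostaglandin synthase (0.886), Ddn, a postsynaptic protein (0.875), and Dusp4, a phosphatase of MAP kinases (0.870). Dgkb, for example, averaged 549.6 and 358 CPM in control and cKO hippocampus and 332 and 429 CPM in control and cKO cortex. For Cd36 they were Hrk, a promoter of apoptosis (r = 0.971), Calb2, the calcium-binding protein calretinin (0.936), Acadm (0.933), Kcng3, a potassium channel subunit (0.930), and Fchsd2 (0.926). Hrk averaged 44.3 and 105 CPM in control and cKO hippocampus and 28.4 and 45.6 CPM in control and cKO cortex. The coefficients describe libraries in 4 groups that share their tissue and genotype, and after removal of the group means they ranged from −0.24 to 0.43 for the genes like Lpl and from −0.12 to 0.51 for those like Cd36. Lpl and Cd36 had r = 0.0068 with each other over the 16 libraries, and r = 0.45 after removal of the group means.

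**Figure D5:**
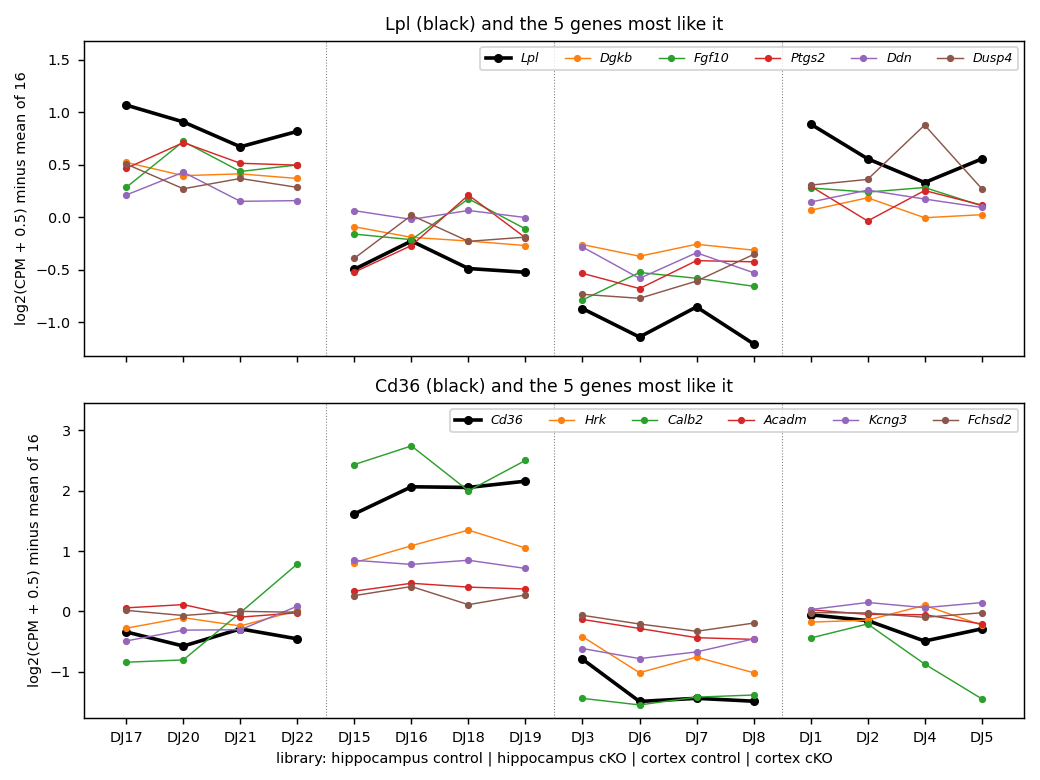
Level of Lpl (upper panel) and Cd36 (lower panel), in black, and of the 5 genes most like each, on the log2(CPM + 0.5) scale minus the mean over 16 libraries (vertical), by library and group (horizontal). The genes like Lpl were chosen for this pattern, with r from 0.870 to 0.915, and those like Cd36 with r from 0.926 to 0.971.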

How the data were processed

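The authors deposited a table of CPM for 21999 genes in 16 libraries. STAR, HTSeq and edgeR, with the builds mm10 and GRCm38, are named per the submitters' processing notes; no source used here gives their versions, roles or counting settings. The CPM columns each sum to 1000000, and 100% of values were whole reads within a tolerance of 0.001. Per the file headers, the authors' deposited tables hold log2 fold changes and adjusted p-values of the genes they called.

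Within each comparison log2(CPM + 0.5) was fitted here with limma 3.58.1 (R 4.3.3) (trend option). Genes averaging 0.5 CPM or more over the 8 libraries were kept, with Benjamini-Hochberg adjustment and a threshold of 0.05. The scripts were tested on simulated data. The labels call the replicates independent. Genes, lists and tests were chosen with earlier results of these data known. Named genes are the 10 members, the 5 genes most like Lpl and Cd36, and up to 3 called genes of each list and comparison with the smallest adjusted p. Fabp7 was named in addition, and its values under the alternatives are not given. Lists were not tested as sets. Alternatives were pseudocounts of 0.1 and 1, no minimum or 1 CPM, quantile and median-of-ratios scaling, all 16 libraries in 1 fit, edgeR 4.0.16 and DESeq2 1.42.0 on recovered reads, and leaving out each library.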

Additional observations from a re-analysis of the deposited data

Results flagged for a closer look

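Over 203 groups of 4 libraries, 1 library stood far from the other 3 in 13, where chance alone gives about 1 in 20. The gap to the nearest library as a share of the group's range was the measure. Among the 10 genes, it was 0.889 for Lpl in cKO hippocampus, where DJ16 had 55.7 CPM and the next 46.4. It was 0.941 for Cd36 in control cortex, where DJ3 had 1.39 CPM (10 reads) and the next 0.707. It was 0.918 for Mgll in cKO cortex, where DJ1 was low at 122 CPM and the next 138. For Gpihbp1 it was 1.0 in control hippocampus and 1.0 in cKO cortex, each from 1 read in 1 library. Among other named genes it was 0.917 for Lrp6 in control cortex (DJ8 low), 0.863 for Dbi in control cortex (DJ6 low), 0.85 for Ucp2 in cKO cortex (DJ1 low), 0.849 for Agpat3 in cKO cortex (DJ4 high), 0.88 for Rxrg in cKO cortex (DJ5 high), 0.829 for Ppargc1a in control hippocampus (DJ20 low), 0.88 for Dusp4 in cKO cortex (DJ4 high) and 0.92 for Fchsd2 in cKO cortex (DJ4 low).

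For 6 genes every cKO library moved down in hippocampus and up in cortex against the controls. The difference of the hippocampal and cortical log2 differences was −2.9 for Lpl, −0.99 for Dgkb, −1.43 for Fgf10, −1.41 for Ptgs2, −0.81 for Ddn and −1.63 for Dusp4. Lpl was chosen for this pattern and the other 5 for their likeness to it, so these differences were not tested.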

How the results depend on the processing

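No difference of a member that was called changed sign under the alternatives. Of those not called, Fabp3 in cortex went from 0.03 to as low as −0.013 (quantile, median-of-ratios, edgeR and DESeq2), Fabp3 in hippocampus from −0.06 to 0.06 without cKO DJ18, Angptl4 in cortex from 0.22 to −0.06 without control DJ6 (and to 0.59 without control DJ7), and Angptl4 between control regions from −0.27 to 0.09 without cortical DJ7. Lrp8 between control regions, at −0.005, ran from −0.047 to 0.021 with a library left out. Cd36 moved in size: its hippocampal log2 difference of 2.39 became 2.60 with a pseudocount of 0.1, 2.18 with a pseudocount of 1, 2.62 in edgeR and 2.63 in DESeq2, and its cortical one of 1.06 became 1.36, 1.39 and 1.40 with a pseudocount of 0.1, in edgeR and in DESeq2, since the added constant weighs on low genes. Lipe in cortex went from −0.52 to −0.025 without cKO DJ5, as given above. Lrp8 in cortex, not called in the main fit, was called without cKO DJ1 (0.24), as given above. The other values of members stayed on their side of the threshold or, where untested, within the spread between replicates. The number of genes called in hippocampus, 192, became 450 with all 16 libraries in 1 fit and 435 in DESeq2, and ran from 56 (without control DJ20) to 295 (without control DJ17) with a library left out; it was 63 without cKO DJ16, 82 without cKO DJ19 and 91 without control DJ21, and the cause was not tested. Of the values of named pathway genes, 15 lost their call under an alternative and 34 with a library left out, and none reversed. Counts limit Gpihbp1, Angptl4 and Cd36 in cortex; counting error at a few reads is large. No paired analysis was made, because each library has its own DJ number and the labels do not link libraries to mice. If the same mice gave both regions, the fits between regions and their SEs do not allow for it.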
